A study of Homo sapiens with 8 samples.

Results

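The genes described here are the telomerase genes TERT, TERC and DKC1, the shelterin genes TERF1, TERF2, TERF2IP, ACD, POT1 and TINF2, and the telomere helicase gene RTEL1. They were chosen by name from knowledge of telomere biology, and each symbol was matched to 1 Ensembl identifier of the gene tables, which gave 10 genes of 60675 in all. RNA came from H9 (WA09) hESCs, an established embryonic stem cell line derived from a human blastocyst, grown without feeder cells on Matrigel in mTeSR1 medium. The paper's own list of culture reagents names iPSC-brew and not mTeSR1. The isogenic lines differ in time in culture: P1 hESCs were in their passage 40s, P2 hESCs in the 100s, P3 hESCs in the 200s and P4 hESCs in the 300s, with 2 samples per line and 8 in all. The study compared the lines because hESCs kept for long periods acquire a survival trait, which it places in P3 and P4 hESCs. Each passage window is 1 line, so time in culture and the history of that line cannot be told apart. The late lines P3 and P4 also carry a copy number gain on the long arm of chromosome 20, in another band than RTEL1, while P1 has normal copy numbers there, so this gain and the late against early split cannot be told apart either. Nothing in the labels says that both samples of a line were separate cultures, so the p-values measure only the spread between these samples, which may be technical. The test of late against early lines counts both samples of a line as separate replicates. Each side holds only 2 lines, so its p-values may be too small.

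Telomerase lengthens chromosome ends by copying a short template in its RNA subunit, TERC, with its reverse transcriptase subunit, TERT. Dyskerin, encoded by DKC1, binds and stabilises that RNA. Shelterin is the protein complex that sits on telomere repeats, hides the chromosome end from DNA repair and controls the access of telomerase. Pluripotent stem cells keep telomerase active, while most differentiated cells silence TERT.

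The template is shown because it is the sequence that the whole complex exists to copy. The first 80 of the 541 bases of the TERC transcript ENST00000602385.1 (GENCODE release 29, written as DNA, 5′ to 3′) hold it at positions 46 to 56, in capitals. The capitals are the longest run in these bases that is complementary to the telomere repeat TTAGGG.
TERC: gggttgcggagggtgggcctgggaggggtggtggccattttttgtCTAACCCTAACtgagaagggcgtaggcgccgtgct

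The 8 libraries held 26874878 to 38095589 estimated counts each, which places the floor of 3 counts at 0.073 to 0.103 CPM (counts scaled to the library size with TMM factors). Mitochondrially encoded genes took 17.2% to 18.5% of the counts in P1 replicate 2, P3 replicate 1 and P4 replicate 1, against 5.89% to 9.84% in the other samples. The 10 markers of pluripotent cells fixed for this work were detected in every sample, with a summed level of 7305.5 to 8503.3 CPM. The summed level of 13 markers of differentiated cells was 4.68 to 13.1 CPM, and the fibroblast markers DCN, LUM and COL3A1 were at or near 0 in every sample, although COL1A1 and COL1A2 brought the 7 fibroblast markers to 333.9 to 919.9 CPM. Of the 10 telomere genes, 9 passed the filter on low counts. TERC did not, so the counts below are over 9 genes.

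When P3 and P4 hESCs were set against P1 and P2 hESCs (4 samples each), 0 of the 9 genes passed edgeR's quasi-likelihood test at an adjusted p-value under 0.05, where 7.54% of the 19499 tested genes did. At an unadjusted p-value under 0.05, 4 of the 9 genes passed, namely TERT, TERF2IP, ACD and POT1, and 25.5% of all tested genes passed. DESeq2 called 1 of the 9, TERF2IP. The median log2 fold change was 0.19 over the 9 genes and 0.01 over all tested genes. Among single lines, TERT was the gene that passed. It was called in P3 against P1 (1 of 9 genes, 12.5% of all tested genes) and in P4 against P3 (1 of 9, 3.31% of all tested genes). In P4 against P1 0 of 9 genes were called, where 5.94% of all tested genes were, 3 of the 9 had an unadjusted p-value under 0.05 (21.5% of all tested genes), and DESeq2 called TERF2IP. In P2 against P1 0 of 9 genes were called, as for nearly all genes (0.00513%), 2 of the 9 had an unadjusted p-value under 0.05 (9.14% of all tested genes), and DESeq2 called 0. A test for any difference among the 4 lines called TERT (adjusted p = 0.0088), 1 of 9 genes, where 13.1% of all tested genes were called, and called 0 of 9 without P3 replicate 1. The comparisons against P1 share the P1 samples, and the comparisons of P3 share the P3 samples.

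**Figure D1:**
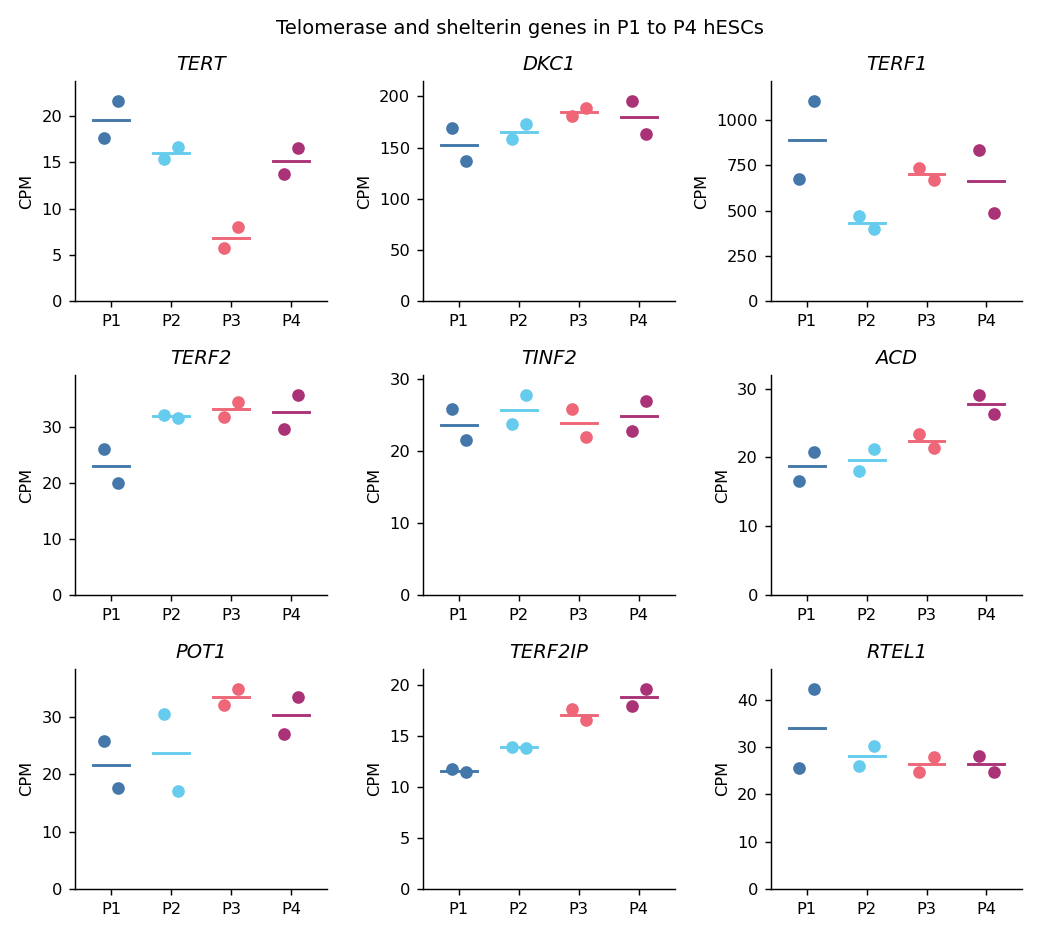
Level in CPM (y axis, from 0, with its own scale in each panel) of the 9 tested genes in P1, P2, P3 and P4, with a point per sample and a line at the mean of the 2 samples. TERT was at 5.72 and 7.98 CPM in P3 and at 13.7 CPM or more in the other 6 samples.

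TERT, the catalytic subunit of telomerase, was lowest in P3. Its level was 17.6 and 21.6 CPM in P1, 15.4 and 16.6 CPM in P2, 5.72 and 7.98 CPM in P3, and 13.7 and 16.5 CPM in P4. Both P3 samples lay below all other samples, while the P2 and P4 samples overlapped and lay just below those of P1. TERT was 0.351 times as high in P3 as in P1 (log2 fold change -1.51 ± 0.25, SE, n = 2 per line, 95% interval -2.05 to -0.97, adjusted p = 0.0027), and this passed the study's own thresholds for a DEG (log2 fold change beyond 1 in size and adjusted p under 0.01), as 3.93% of all tested genes did. TERT was 2.2 times as high in P4 as in P3 (log2 fold change 1.14 ± 0.25, SE, n = 2 per line, 95% interval 0.6 to 1.68, adjusted p = 0.027). The difference between P4 and P1 was not resolved (log2 fold change -0.37, 95% interval -0.9 to 0.15, adjusted p = 0.40), nor was that between P2 and P1 (-0.29, 95% interval -0.81 to 0.23, adjusted p = 0.74).

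Between P3 and P4 as a pair and P1 and P2 as a pair, the log2 fold change of TERT was -0.70 (95% interval -1.34 to -0.05, adjusted p = 0.17). The P3 and P4 samples spanned 5.72 to 16.5 CPM and overlapped the 15.4 to 21.6 CPM of the P1 and P2 samples. When the 4 lines were fitted as 4 groups, so that the gap between P3 and P4 no longer counted as error, the log2 fold change was -0.80 and passed (adjusted p = 0.0093). It also passed without P4 replicate 2 (-0.96, adjusted p = 0.049), and over 17 alternatives the adjusted p-value was between 0.0093 and 0.49.

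The samples rich in mitochondrial counts were 1 each in P1, P3 and P4. Without these 3 samples, an alternative chosen after seeing the data, TERT had a log2 fold change of -1.14 in P3 against P1 and of 1.03 in P4 against P3. That fit leaves 1 sample in each of P1, P3 and P4 and takes its spread from P2 alone, the line whose samples differed least, so these are values without a replicate check, and calls it makes carry no weight here although they are counted among the alternatives. The P3 against P1 difference was called in 15 of 17 alternatives (adjusted p between 9.3e-07 and 0.072). It was lost on both TPM scales in limma, with a log2 fold change of -1.38 (adjusted p = 0.072) and of -1.70 (adjusted p = 0.059). The P4 against P3 difference was called in 10 of 17 alternatives (adjusted p between 0.0011 and 0.26). It was lost on both TPM scales, with only the 4 samples compared (log2 fold change 1.15, adjusted p = 0.10), without P3 replicate 1 (log2 fold change 0.92, adjusted p = 0.12) and without P4 replicate 2 (1.00, adjusted p = 0.15), and also without either P2 sample (1.14, adjusted p = 0.057), where the fold change itself did not move.

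TPM, which divides by transcript length and scales to the total of each sample, spread the P3 samples further apart. TERT was listed at 7.34 and 9.72 TPM in P1, 6.94 and 6.88 TPM in P2, 1.45 and 4.39 TPM in P3, and 6.46 and 7.24 TPM in P4. Both P3 samples were again below every other sample. The abundance-weighted transcript length that RSEM gave for TERT was 3699 bases in P3 replicate 1 and 2515 bases in P3 replicate 2. The former was the longest of the 8 samples, where the range over the other samples was 2413 to 3214 bases. DKC1 was also lower in P3 replicate 1 on this scale, at 75.1 TPM against 115.2 TPM in replicate 2. Its levels there were 180.8 and 188.6 CPM and its lengths 2347 and 2286 bases. The part of transcript length in the TERT spread was not tested.

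In bulk RNA, a lower level in every cell and a smaller share of cells that express the gene cannot be told apart. The summed markers of differentiated cells were 13.1 and 11.5 CPM in P3 and 12.8 and 11.4 CPM in P2, where TERT was at 15.4 and 16.6 CPM. FOXA2, a marker of endoderm, was at 6.76 and 6.33 CPM in P3 and at 0.135 to 0.977 CPM in the other lines, while EOMES was at 0.0948 and 0.0837 CPM in P3 and at 0.584 to 2.87 CPM in the others. Other endoderm markers went both ways. AFP was highest in P3, at 2.75 and 3.18 CPM against 0.706 to 2.39 CPM in the other lines. SOX17 was at 0 in both P3 samples. GATA6 was at 0.0632 and 0.0279 CPM and GATA4 at 0.0948 and 0.167 CPM in P3. In P2, GATA6 was at 0.706 and 0.56 CPM and GATA4 at 0.779 and 0.756 CPM. The part of these genes in the TERT level was not tested, and FOXA2, EOMES and AFP were picked after their values were seen. The summed pluripotency markers of P3, 8197.9 and 7869.0 CPM, lay inside the range of the other lines.

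TERT lies on the minus strand of chromosome 5, at chr5:1253147-1295069 in GRCh38. Of its 20 nearest tested neighbours, 10 on each side and reaching from 0.82 Mb below to 1.46 Mb above its start site, 3 were called lower and 0 higher in P3 against P1 (8.0% and 4.49% of all tested genes), and their median log2 fold change was -0.63, against -0.02 for all tested genes. The 3 neighbours, named after their values were seen, were SLC9A3, which encodes a sodium-proton exchanger, its antisense gene SLC9A3-AS1 (log2 fold change -3.42, adjusted p = 0.00042) and IRX2, a homeobox gene (-1.98, adjusted p = 0.012). SLC9A3 (adjusted p = 0.002) had 30.8 and 41.4 estimated counts in P1 and 2 and 1 in P3, which is under a floor of 3 counts per sample, so no fold is given. CLPTM1L, the nearest neighbour at 0.05 Mb, had a log2 fold change of 0.20 (adjusted p = 0.54). In P4 against P3, 3 of these 20 neighbours were called higher and 0 lower (2.19% and 1.12% of all tested genes), with a median log2 fold change of 0.24 against 0.01 for all tested genes. These were SLC9A3-AS1, TPPP and IRX4, of which SLC9A3-AS1 alone was also called in P3 against P1. A lowered median around a gene was not particular to TERT. Around TINF2, itself level across the lines, 7 of 20 neighbours were called lower and 1 higher in P3 against P1, with a median of -0.77.

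**Figure D2:**
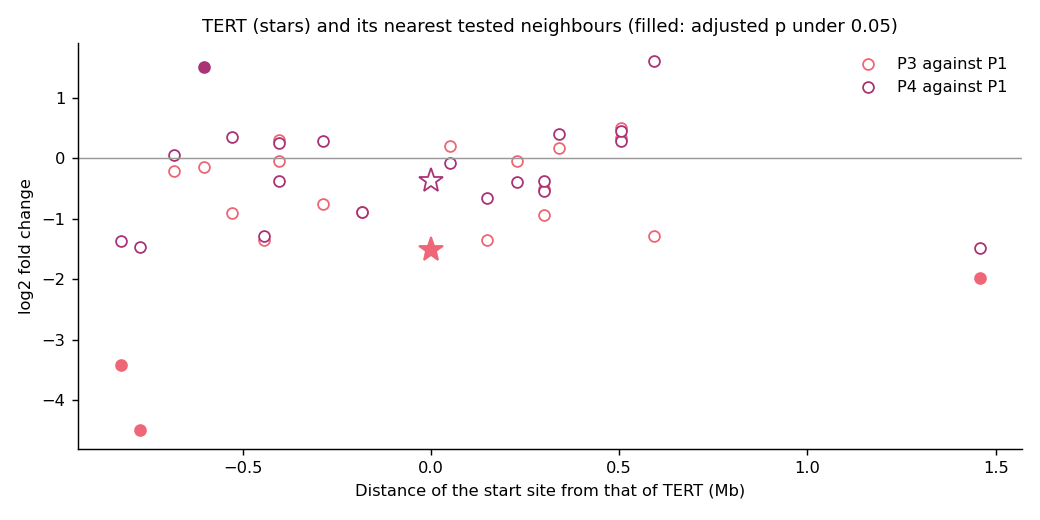
Log2 fold change (y axis) of TERT (stars) and its 20 nearest tested neighbours (circles) against the distance of their start sites from that of TERT in Mb (x axis), for P3 against P1 and P4 against P1; filled symbols had an adjusted p under 0.05. TERT was at -1.51 in P3 and -0.37 in P4, and CLPTM1L beside it was at 0.20 in P3; the lowest circle, SLC9A3, had 2 and 1 counts in P3 and its height has no firm value.

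The genes whose levels followed TERT most closely over the 8 samples were ADAMTS14, an extracellular metalloprotease gene (Pearson r = 0.995 of log2(CPM + 1)), SCNN1D, which encodes a sodium channel subunit (r = 0.993), and NBEAL2, a gene required for platelet granules (r = 0.99). They are the highest 3 of 19498 correlations, so the r values are a description. All 3 were lowest in P3, as TERT was: ADAMTS14 was at 1.9 and 3.29 CPM there and at 5.77 to 9.23 CPM in the other samples.

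TERC, the template RNA, lies on chromosome 3 (chr3:169764520-169765060, minus strand) and had almost no reads in these mRNA libraries. Its estimated counts were 0 and 0 in P1, 10.7 and 9.46 in P2, 0 and 3.86 in P3, and 2 and 12.9 in P4. The RNA has no poly(A) tail, and the libraries were made from mRNA, so these values do not measure how much TERC the cells held. Both P1 samples and P3 replicate 1, at 0 counts, and P4 replicate 1, at 2 counts, lie under the floor of 3 counts. No difference was tested.

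DKC1, which encodes the dyskerin that TERC needs, was among the most abundant of the 9 genes and differed little between samples. It was at 168.8 and 137.1 CPM in P1, 158.4 and 172.6 CPM in P2, 180.8 and 188.6 CPM in P3, and 195.4 and 163.5 CPM in P4. The samples of the early and late lines overlapped. The log2 fold change of P3 and P4 against P1 and P2 was 0.19 (95% interval -0.09 to 0.48, adjusted p = 0.38). DKC1 lies on the X chromosome (chrX:154762742-154777689) and shares exon bases with the small RNA genes SNORA36A, SNORA56 and MIR664B on its own strand.

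TERF1 encodes TRF1, a shelterin protein that binds double-stranded telomere repeats. It was by far the most abundant of the 10 genes, and its level differed more within P1 and within P4 than between the means of the early and late lines. It was at 672.0 and 1104.7 CPM in P1, 469.9 and 397.9 CPM in P2, 737.4 and 666.7 CPM in P3, and 834.5 and 489.0 CPM in P4. Both P2 samples were below every other sample. The log2 fold change of P3 and P4 against P1 and P2 was 0.04 (95% interval -0.60 to 0.68, adjusted p = 0.94), and that of P2 against P1 was -1.03 (95% interval -1.66 to -0.41, adjusted p = 0.37). The P2 against P1 difference passed when no filter on low counts was applied (log2 fold change -1.01, adjusted p = 0.0017). Without P1 replicate 2 it was -0.63 (adjusted p = 1.0), and it was also -0.63 without the 3 samples rich in mitochondrial counts, where P1 is 1 sample. Over 17 alternatives its adjusted p-value was between 0.0017 and 1.0.

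In P1, P3 and P4 the sample with the larger mitochondrial share had the higher TERF1 level. The shares were 9.84% and 18.5% of counts in P1, 18.4% and 7.53% in P3, and 17.2% and 5.89% in P4. In P2, where the shares were 6.55% and 6.72%, the order was the reverse. The part of the mitochondrial share in the TERF1 level was not tested. TERF1 lies on chromosome 8 (chr8:73008864-73048122), and its deposited counts were not whole in any of the 8 samples, so RSEM had split reads between this gene and others and its level is uncertain to that extent.

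**Figure D3:**
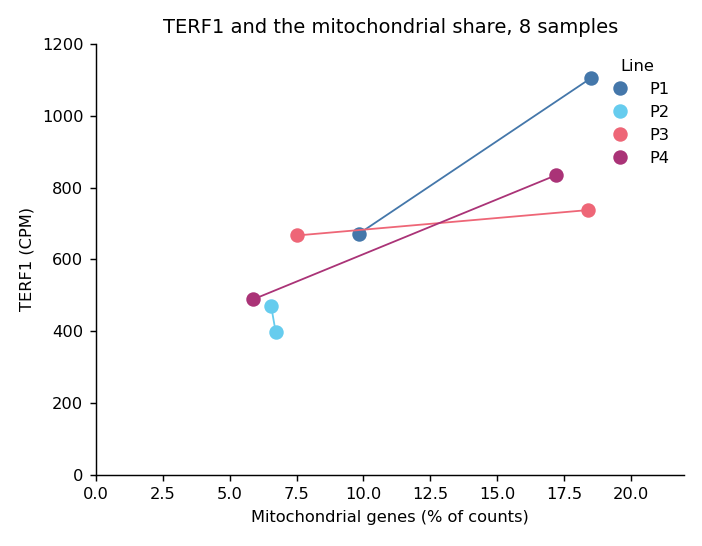
TERF1 level in CPM (y axis) against the share of counts from mitochondrially encoded genes in percent (x axis) for the 8 samples, with a line joining the 2 samples of each line. The P1 samples rise from 672.0 to 1104.7 CPM as the share goes from 9.84% to 18.5%, and the P2 samples, at 6.55% and 6.72%, are the lowest.

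TERF2 encodes TRF2, the shelterin protein that protects the telomere end from repair. It was lower in P1, at 26.2 and 20.0 CPM, than in the other 6 samples, which were at 32.2 and 31.7 CPM in P2, 31.8 and 34.6 CPM in P3, and 29.7 and 35.8 CPM in P4. The P1 samples did not overlap the rest, a split noticed after the values were seen, and its share over all tested genes was not counted. The log2 fold changes against P1 were 0.47 in P2, 0.52 in P3 and 0.50 in P4, with adjusted p-values of 0.54, 0.12 and 0.19, so no line passed the test. Without P1 replicate 2, the sample with the largest mitochondrial share, the log2 fold changes were 0.29, 0.34 and 0.32. Exons of TERF2 (chr16:69355561-69408571) overlap those of AC026464.3 on the same strand.

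TERF2IP encodes RAP1, the shelterin protein that TRF2 carries. In the comparison of the early and late lines with 2 groups it had the lowest adjusted p-value of the 9 genes, while TERT had the lowest in the model with 4 groups and without P4 replicate 2. It was at 11.7 and 11.4 CPM in P1, 13.9 and 13.8 CPM in P2, 17.6 and 16.5 CPM in P3, and 17.9 and 19.6 CPM in P4. Every P3 and P4 sample lay above every P1 and P2 sample, as for 8.38% of all tested genes. The level was 1.4 times as high in P3 and P4 (log2 fold change 0.49 ± 0.15, SE, n = 4 samples per group, both samples of each line counted, 95% interval 0.17 to 0.82, adjusted p = 0.066), which did not pass. Over 17 alternatives the log2 fold change was between 0.24 and 0.54 and the adjusted p-value between 0.0096 and 0.63, and 2 alternatives called it, DESeq2 (adjusted p = 0.0096) and the model with 4 groups (adjusted p = 0.038). P4 against P1 gave 0.70 (95% interval 0.24 to 1.15, adjusted p = 0.071). Here 2 of 17 alternatives called it, DESeq2 (adjusted p = 0.029) and the fit without the 3 samples rich in mitochondrial counts (0.72), where P1 and P4 are 1 sample each, with adjusted p-values of 0.029 to 0.47 over all 17.

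The transcript length of TERF2IP moved the same way as its level. The abundance-weighted length was 1859 to 2011 bases in P1 and P2 and 2029 to 2101 bases in P3 and P4, with no overlap. TERF2IP was 1 of 9 genes whose lengths did not overlap, and 3.19% of all tested genes had lengths that did not. On the TPM scale the samples did overlap, at 6.66 to 10.9 TPM in P1 and P2 and 8.38 to 13.7 TPM in P3 and P4. P3 replicates 1 and 2 were at 8.38 and 11.3 TPM, although their levels (17.6 and 16.5 CPM) and lengths (2071 and 2058 bases) were close. What set the overlap in TPM was not tested. TERF2IP (chr16:75647786-75761872, plus strand) overlaps exons of KARS on the other strand, and its counts were not whole in 6 of 8 samples. Whether the counting used the strand is not given in the sources used here, so reads of overlapping genes on opposite strands may not have been told apart. The counts of ACD and POT1, which also overlap genes on the other strand, were whole in all 8 samples.

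ACD encodes TPP1, which recruits telomerase to the chromosome end. It was at 16.6 and 20.8 CPM in P1, 18.1 and 21.3 CPM in P2, 23.4 and 21.4 CPM in P3, and 29.1 and 26.3 CPM in P4. The late samples again lay above the early samples, if only just for P3, so that 2 of the 9 genes, ACD and TERF2IP, had levels that did not overlap, where 17.6% of all tested genes did. The log2 fold change of P3 and P4 against P1 and P2 was 0.39 (95% interval 0.05 to 0.72, adjusted p = 0.15), and that of P4 against P1 was 0.57 (95% interval 0.11 to 1.03, adjusted p = 0.14). ACD (chr16:67657512-67660815, minus strand) overlaps exons of CARMIL2 on the other strand.

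POT1 encodes the shelterin protein that binds the single-stranded end of the telomere and works as a pair with TPP1. It was at 25.7 and 17.5 CPM in P1, 30.4 and 17.0 CPM in P2, 32.1 and 34.9 CPM in P3, and 27.0 and 33.5 CPM in P4. The P2 samples spanned most of the range of the 8 samples, and the early and late samples overlapped. The log2 fold change of P3 and P4 against P1 and P2 was 0.49 (95% interval 0.05 to 0.93, adjusted p = 0.15). POT1 (chr7:124822386-124929983, minus strand) overlaps exons of POT1-AS1 on the other strand.

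TINF2 encodes TIN2, the hub that joins TRF1, TRF2 and TPP1, and was the steadiest of the 9 genes. Its 8 samples lay between 21.5 and 27.8 CPM, a 1.29-fold range. The log2 fold change of P3 and P4 against P1 and P2 was -0.02, with a 95% interval of -0.33 to 0.29 and an adjusted p of 0.95. TINF2 lies at chr14:24239643-24242674 on the minus strand.

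RTEL1 encodes a helicase that unwinds telomere loops. It was at 42.3 CPM in P1 replicate 2, the sample with the largest mitochondrial share, and at 24.8 to 30.1 CPM in the other 7 samples. The log2 fold change of P3 and P4 against P1 and P2 was -0.23 (95% interval -0.62 to 0.16, adjusted p = 0.44), and -0.04 without that sample. RTEL1 (chr20:63657810-63696253, plus strand) shares its exons with the readthrough gene RTEL1-TNFRSF6B, and its counts were not whole in any sample, so its level depends on how RSEM split the reads. The readthrough gene was at 13.1 and 24.9 CPM in P1 and at 5.53 to 9.98 CPM in the other 6 samples, with a log2 fold change of -1.29 in P3 against P1 (adjusted p = 0.046). When both genes were joined, an alternative chosen after seeing the data, RTEL1 was still not called in any of the comparisons.

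**Figure D4:**
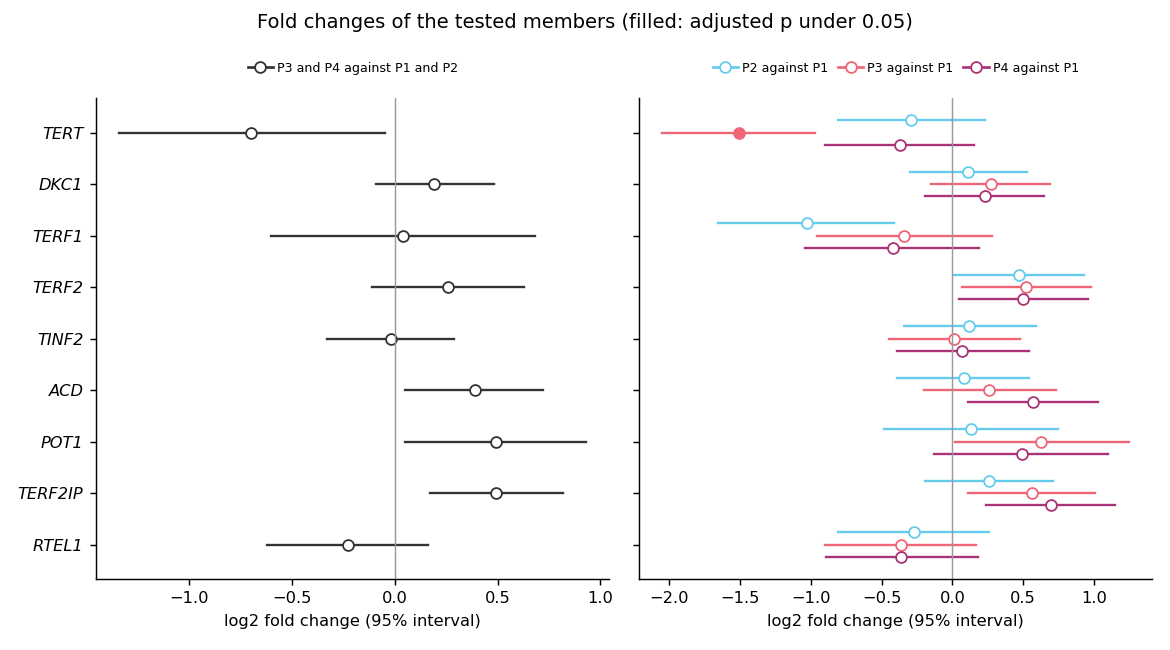
Log2 fold change (x axis) of the 9 tested genes with its 95% interval, for P3 and P4 against P1 and P2 (left) and for P2, P3 and P4 each against P1 (right); filled points had an adjusted p under 0.05. TERT in P3, at -1.51, is the filled point, and the interval of TERF2IP on the left, 0.17 to 0.82, lies above 0 without passing the test.

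On a scale that allows genes to be compared, TPM, the 10 genes covered a wide range. TERF1 had a mean of 371.4 ± 80.5 TPM (SD, n = 8), above 98.5% of the tested genes, and DKC1 a mean of 97.8 ± 14.9 TPM, at the 94.0th percentile. ACD, TERF2, TINF2 and POT1 formed a group at mean levels of 19.4, 18.1, 17.9 and 17.7 TPM, whose neighbours in that order differed by less than their SDs of 3.21 to 4.97 TPM. RTEL1 at 10.2 ± 2.77 TPM and TERF2IP at 9.91 ± 2.13 TPM did not differ beyond their spread either. TERT followed at 6.3 ± 2.44 TPM, near the middle of all tested genes (percentile 49.7). This order is over all 8 samples, P3 included, where TERT averaged 2.92 TPM. In P1 TERT, at a mean of 8.53 TPM, lay above TERF2IP at 7.62 TPM, while RTEL1 stayed above both at 12.8 TPM. TERC was last at 0.546 TPM.

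The partners of these genes were taken from 4 lists with 54 genes, all of which passed the filter. In P3 and P4 against P1 and P2, 0 of 18 genes of telomerase assembly and RNA maturation were called (median log2 fold change 0.25), as were 0 of 11 genes of telomere end replication and the CST complex (0.24). Of 14 shelterin partners and telomere repair genes, 1 was higher and 0 lower (median 0.0), and of 11 genes of telomeric chromatin and recombination, 1 was higher and 0 lower (median 0.20). For comparison, 3.5% of all tested genes were called higher and 4.04% lower, with a median of 0.01.

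The gene that rose among the shelterin partners was SAMHD1, a dNTPase whose activity limits nucleotide pools and which takes part in resection at DNA ends. It was at 45.1 to 51.3 CPM in P1 and P2 and 64.4 to 77.4 CPM in P3 and P4, and the groups did not overlap (log2 fold change 0.59 ± 0.12, SE, n = 4 samples per group, both samples of each line counted, adjusted p = 0.015). The gene that rose among the chromatin genes was PML, which forms the nuclear bodies found at telomeres of cells that lengthen them by recombination. It was at 21.0 to 27.4 CPM in P1 and P2 and 30.7 to 46.5 CPM in P3 and P4, again without overlap (log2 fold change 0.62 ± 0.16, SE, n = 4 samples per group, both samples of each line counted, adjusted p = 0.038). Every late sample lay above every early sample in 8.38% of all tested genes. SAMHD1 and PML were named because this comparison called them, so their lack of overlap is a description.

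In P3 against P1, 6 of the 54 partner genes were called higher and 1 lower, where 4.49% of all tested genes were higher and 8.0% lower, and the median log2 fold change of the assembly, end replication and chromatin lists was 0.42, 0.44 and 0.39, while that of the shelterin partners was -0.03. The genes named here beyond SAMHD1 and PML were picked after their values were seen. SHQ1, the chaperone that loads dyskerin, was at 21.1 and 17.3 CPM in P1, 31.4 and 33.2 CPM in P3 and 13.3 and 11.5 CPM in P4. It was thus higher in P3 than in P1 (log2 fold change 0.75, adjusted p = 0.037) and lower in P4 than in P3 (-1.38, adjusted p = 0.0049). DCLRE1B, the nuclease Apollo that trims telomere ends, was higher in P3 (log2 fold change 0.96, adjusted p = 0.016), and PIF1, a helicase that removes telomerase from ends, was lower (-1.21, adjusted p = 0.033). The other partner genes called higher in P3 against P1 were HSP90AA1, ASF1A, NSMCE2 and SAMHD1, with log2 fold changes of 0.87, 0.96, 0.82 and 0.67. PIF1 was at 80.1 and 145.3 CPM in P1 and 65.9 and 70.9 CPM in P2. It was at 31.3 and 65.7 CPM in P3 and 65.0 and 71.1 CPM in P4. P3 replicate 2 was thus level with P2 and P4. P3 replicate 1 and P1 replicate 2, both rich in mitochondrial counts, stood apart in opposite directions. P4 replicate 1, also rich in them, was at 65.0 CPM. In P4 against P1, PML alone of the 54 partner genes was called (log2 fold change 0.86, adjusted p = 0.034), where 5.94% of all tested genes were.

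**Figure D5:**
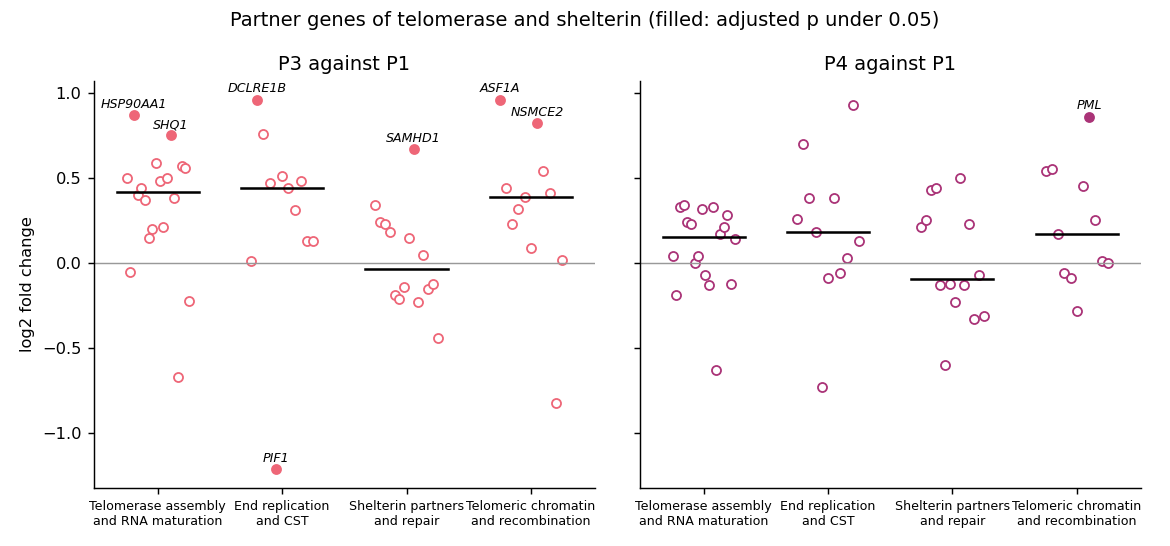
Log2 fold change (y axis) of the 54 partner genes in 4 lists, for P3 against P1 (left) and P4 against P1 (right); each circle is a gene, black lines are list medians, and filled, labelled circles had an adjusted p under 0.05. The medians of 3 lists in P3 were 0.39 to 0.44, and PML, at 0.86, is the filled circle in P4.

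Promoter windows, from 250 bases before to 50 bases after the start of transcription, were available in RefSeq's table for 7 of the 10 genes. The E-box CACGTG, a motif of MYC and related factors, was found by searching both strands in 1 of these 7 genes, TERT, with 1 match, and in 7.26% of all 35116 promoters. The GC box GGGCGG, the motif of SP1, was found in all 7 genes, in at least 1 of the windows of each, and in 45.0% of all promoters. DKC1 had 4 matches, TERT 3, ACD and POT1 2 each, and TERF2IP 1. A match describes the letters of the window and is not a measurement of binding.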

How the data were processed

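RNA-seq of P1, P2, P3 and P4 hESCs (2 samples each) was used. Per the labels, libraries were made with a stranded mRNA kit. Per the submitters' processing notes, reads were checked with FastQC, trimmed with Trim Galore, aligned with STAR 2.7.3a to GRCh38 and quantified with RSEM 1.3.3; the annotation release and the use of strand in counting are not given in the sources used here. The authors deposited, per sample and gene, an expected count (estimated, not normalized), a TPM and an FPKM value, and an abundance-weighted transcript length; FPKM was not used. The authors' TPM values sum over all genes, mitochondrial genes included.

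Expected counts were rounded and analysed with edgeR 4.0.16 in R 4.3.3 (TMM, filterByExpr with the 4 lines as groups, quasi-likelihood test, Benjamini-Hochberg over 19499 tested genes of 60675). The late lines P3 and P4 were set against the early lines P1 and P2 with 2 groups, and single lines were contrasted with 4 groups, and a call was an adjusted p under 0.05. The study's thresholds, a log2 fold change beyond 1 in size at an adjusted p under 0.01, were an alternative, as were DESeq2 1.42.0, its size factors, no filter, the replicate number as a block, other models, limma 3.58.1 on log2(TPM + 1) and log2(TPM + 0.1), no mitochondrial genes, and leaving out each sample. The methods were tested on simulated data. Named genes were the 10 telomere genes, called partner genes of P3 and P4 against P1 and P2 hESCs, and the 3 genes most correlated with TERT; others are marked where named. The genes and lists were chosen with earlier results of these data known. Positions and exon overlaps come from GENCODE release 29. The floor of 3 counts covers counting error only.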

Additional observations from a re-analysis of the deposited data

Results flagged for a closer look

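TERT differed between the late lines. Set against P1, its log2 fold change was -1.51 for P3 and -0.37 for P4, and the difference between these, tested as P4 against P3, was 1.14 (SE 0.25, adjusted p = 0.027, edgeR's quasi-likelihood test), with both P4 samples above both P3 samples. The effects share the P1 samples, and the test of the difference does not use them other than for the spread. Among 36 sets of 4 samples (the early or the late lines, by level and by transcript length of the 9 tested genes), 0 had a sample far enough from the rest to be singled out, where chance gives about 1.8.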

How the results depend on the processing

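Over 45 log2 fold changes of the 9 tested genes and 770 values under alternatives, 706 kept their direction and side of the threshold, 47 changed sign, 8 newly passed and 9 no longer passed. The causes were not tested, except that leaving out samples leaves fewer to test. With 2 samples per line, a line left with 1 sample was assumed to vary like the others. Without the 3 samples rich in mitochondrial counts this holds for P1, P3 and P4, and the spread comes from P2 alone, the line with the least difference between its samples, so single-line calls of that fit support nothing. Another limit is that TERC could not be tested, that TERF1, TERF2IP and RTEL1 depend on reads split between genes, and that TPM values shift all genes (median log2 fold change up to 0.19 in P2 against P1).

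Of all tested genes, 1470 were called in the late lines (P3 and P4) against the early lines (P1 and P2). The count was 2709 with DESeq2, 3093 with 4 groups, 856 and 814 on log2(TPM + 1) and log2(TPM + 0.1), 333 without the 3 samples rich in mitochondrial counts, 429 at the study's thresholds, and 699 (without P1 replicate 1) to 2279 (without P4 replicate 2) when 1 sample was left out. For P2 against P1, 1 gene was called. The count was 98 with DESeq2, 479 with no filter, 186 with only the 4 samples, 5 and 4 on the TPM scales, 206 without the 3 samples, 0 at the study's thresholds and 0 to 19 when 1 sample was left out. For P3 against P1, 2435 genes were called, 869 and 867 on the TPM scales, 767 at the study's thresholds, and 545 (without P1 replicate 2) to 2830 when 1 sample was left out. For P4 against P1, 1159 genes were called, 1753 with DESeq2, 2138 with no filter, 479 and 463 on the TPM scales, 3143 without the 3 samples, 412 at the study's thresholds, and 310 to 1487 when 1 sample was left out. For P4 against P3, 646 genes were called, 1311 with DESeq2, 1722 with no filter, 341 with only the 4 samples, 169 and 213 on the TPM scales, 3970 without the 3 samples, 159 at the study's thresholds, and 195 to 1055 when 1 sample was left out. For any difference, 2560 genes were called, 4090 with DESeq2, 5192 with no filter, 1001 and 1027 on the TPM scales, 6412 without the 3 samples, and 1267 to 3253 when 1 sample was left out.

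Of the 9 telomere genes, the late against early count was 1 with DESeq2 (TERF2IP), 2 with 4 groups (TERT and TERF2IP), and 0 to 1 when 1 sample was left out (TERT without P4 replicate 2, log2 fold change -0.96, adjusted p = 0.049). For P2 against P1 it was 1 (TERF1) with no filter and without the 3 samples. For P3 against P1 it was 0 on both TPM scales and 1 whichever sample was left out. For P4 against P1 it was 1 (TERF2IP) with DESeq2 and without the 3 samples. For P4 against P3 it was 0 with only the 4 samples, on both TPM scales and at the study's thresholds, and 0 to 1 when 1 sample was left out. For any difference it was 3 with DESeq2 (TERF1, TERF2IP and TERT), 2 with no filter and without the 3 samples (TERF1 and TERT), 0 on both TPM scales, and 0 (without P3 replicate 1) to 2 (without P4 replicate 1) when 1 sample was left out.

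Fold changes that changed sign were not called under any setting. On the TPM scales, TERF1 went to -0.03 on both in the late lines, TINF2 to -0.21 and -0.22 in P3 against P1, and, in P4 against P3, DKC1 to 0.11 on both, TERF1 to 0.03 on both and POT1 to 0.18 and 0.19. Without the 3 samples, P2 against P1 gave -0.03 for DKC1, -0.12 for POT1, -0.01 for TINF2 and 0.14 for RTEL1, P3 against P1 gave -0.24 for TINF2 and 0.13 for RTEL1, P4 against P1 gave -0.07 for DKC1, and P4 against P3 gave 0.03 for TERF2 and -0.18 for RTEL1. When 1 sample was left out, the ranges that crossed 0 were, for late against early, -0.14 to 0.41 for TERF1 and -0.08 to 0.04 for TINF2. For P2 against P1 they were -0.05 to 0.25 for ACD, -0.03 to 0.29 for DKC1, -0.34 to 0.49 for POT1 and -0.57 to 0.14 for RTEL1. For P3 against P1 they were -0.64 to 0.06 for TERF1, -0.11 to 0.16 for TINF2 and -0.67 to 0.05 for RTEL1. For P4 against P1 they were -0.05 to 0.20 for TINF2 and -0.68 to 0.06 for RTEL1. For P4 against P3 they were -0.18 to 0.08 for DKC1, -0.52 to 0.25 for TERF1, -0.16 to 0.11 for TERF2, -0.06 to 0.18 for TINF2 and -0.09 to 0.10 for RTEL1.

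The replicate numbers 1 and 2 did not pair the samples: across genes, differences between replicates correlated between lines with r of -0.0901 to 0.138. With the replicate number as a block, TERT kept its calls in P3 against P1 (-1.52, adjusted p = 0.0018) and in P4 against P3 (1.15, adjusted p = 0.02), and no other telomere gene was called.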
